A study of Mus musculus with 21 samples.

Results

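Cultured notochord progenitors (NotoPdiff cells) were set against notochord progenitors taken from the mouse embryo (NotoP cells), gene by gene. A gene entered the comparison when it had at least 5 FPKM (fragments scaled to transcript length and to the mapped fragments of the library, a level per length) in NotoPdiff cells or in NotoP cells of both embryonic stages, E8.5 and E9.5, which left 8656 of the 23983 genes listed. It was then called when NotoPdiff differed at least 3-fold in the same direction from both NotoP stages, on the scale log2((FPKM + 1)/(FPKM + 1)), on which 3-fold is 1.58. This gave 302 genes, 180 higher and 122 lower in culture. Each called gene was then read in a second lineage, mesoderm progenitors, by comparing cultured MPdiff cells with embryonic MP cells at E9.5. A call that this pair showed at least 3-fold the same way is described here as shared by the mesoderm lineage, and it cannot be told apart from a general effect of culture or sequencing platform.

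The embryonic cells came from embryos made by morula aggregation (tetraploid complementation in the labels, diploid aggregation in the text of the study) with F1G4 embryonic stem cells that carried 3 BAC reporters, T::H2B-Venus, Noto::H2B-mCherry and Foxa2::H2B-mTurquoise. NotoP cells were sorted from the caudal end as positive for all 3 reporters, MP cells as positive for the *T* reporter alone, and trunk notochord cells further anteriorly. The cultured cells came from another engineered line of the same F1G4 background, with a BAC T reporter that also drives the inducible transactivator irTA (T::H2B-mCherry-T2A-irTA), a Noto::H2B-mTurquoise BAC reporter and a TRE::Foxa2-IRES-EGFP transgene at Rosa26. They were differentiated in N2B27 medium with bFGF and then the Wnt pathway agonist CHIR99021. NMPdiff cells are the neuromesodermal stage of this culture, MPdiff cells are T+/Noto- cells without doxycycline, and NotoPdiff cells are T+/Noto+ cells from cultures given doxycycline, which switches on the *Foxa2* transgene. Foxa2 was part of the sort in the embryo but not in culture. Each of the 9 groups has 1 RNA-seq library, so no value below has a replicate check, and the table holds no counts from which the precision of a value could be computed. The study lists mapped reads for the embryonic libraries, with the fewest cells and reads for MP at E8.5, and these totals were not used here. Culture, cell line, dissociation and sequencing instrument all differ between the cultured and the embryonic libraries in the same way and cannot be told apart. Doxycycline was given for NotoPdiff cells only. The NotoP comparison cannot separate it from these differences, and the mesoderm pair does not carry it.

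The notochord is a rod of mesoderm along the midline of the vertebrate embryo. It secretes Shh, which patterns the neural tube and the somites, and it stiffens by laying down a sheath of collagens and laminins. Its progenitors sit at the posterior end of the growing axis, where they co-express the T-box factor T (brachyury), the forkhead factor Foxa2 and the homeobox factor Noto. As the axis elongates, progenitors leave this pool, and the Hox genes that posterior cells express come from progressively more 5′ positions of each cluster.

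The sorted cultured populations differed in defining notochord markers. NotoPdiff cells had 22.5 FPKM of *Noto*, 375 of *T*, 95.5 of *Foxa2*, 30.2 of *Shh*, 28.5 of *Chrd* and 40.1 of *Nog*. MPdiff cells had 0, 25.8, 1.22, 0, 0.186 and 1.83 FPKM of the same genes, so all 6 were higher in NotoPdiff. The difference in *Noto* follows from the sort. The *Foxa2* transgene was switched on in NotoPdiff only, and its share of the *Foxa2* difference cannot be read from these values. *Shh*, *Chrd* and *Nog* were not part of the sort. Genes of blood were near 0 in every library, with a summed level of at most 2.27 FPKM over 12 genes, and genes of endothelium reached at most 4.40 FPKM over 10. The 12 genes of fibroblast feeder cells summed to 12.0 to 18.6 FPKM in the 3 cultured libraries and to 31.6 to 60.0 in the 6 embryonic ones. Rn45s, the precursor of ribosomal RNA, stood apart. It had 18506 to 22382 FPKM in the embryonic libraries, 4.66% to 5.51% of the summed FPKM, and was listed at 0 in the cultured ones. Symbols of small nucleolar RNAs and microRNAs took 0.308% to 0.650% of the sum in embryonic and 3.16% to 4.40% in cultured libraries. Between 10719 and 13945 genes were listed at 0 in embryonic and between 7573 and 8246 in cultured libraries, and none of 15 housekeeping genes was at 0 in any.

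Higher and lower genes were a small share of those compared, 2.08% and 1.41%. These shares are the background for the counts of called list members below. For the 180 higher genes the median FPKM was 13.8 in NotoPdiff, against 0.953 in NotoP at E8.5 and 0.808 at E9.5. For the 122 lower genes it was 2.89 against 23.4 and 25.1. The median log2 ratio over all genes compared was 0.00 at E8.5 and 0.01 at E9.5. Of the higher genes, 45 were listed at 0 in both NotoP libraries. Their ratio depends on the added 1 FPKM and is not quoted. Just inside the threshold were Zc3hav1, with a smaller log2 ratio of 1.59, and Gstm5, with -1.59, and just outside were Gtse1, with 1.58, and Hoxb3, with -1.58. NotoP cells of the 2 stages themselves differed at least 3-fold for 359 of the genes compared (4.15%).

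Of the 180 higher genes, 95 (52.8%) were also at least 3-fold higher in MPdiff than in MP at E9.5, against 2.83% of all genes compared. Of the 122 lower genes, 49 (40.2%) were also at least 3-fold lower there, against 1.62%. Another 48 higher and 37 lower genes differed 1.5- to 3-fold the same way in the mesoderm pair, and 37 higher and 36 lower genes less than 1.5-fold or the opposite way. These last 73 genes are called not shared here. Of these, 14 higher and 14 lower genes had under 1 FPKM in both MPdiff and MP at E9.5, so there was little for the mesoderm pair to show. Small RNA symbols made up 44 of the higher genes. Without them, 55 of 136 higher genes (40.4%) were shared, 45 lay between and 36 were not shared. The 136 still include short structured RNAs outside the symbol pattern, such as Rnu73b, Rprl3 and Rmrp. Across all 8656 genes Pearson's r between the mean NotoP ratio and the MP ratio was 0.62 and Spearman's rho 0.45, given as a description: the 2 ratios share no library, but they share the culture system and the instrument, and their points are genes. Without the small RNA symbols and Rn45s (8604 genes) the values were 0.53 and 0.44. All 4 embryonic libraries outside NotoP (MP and trunk notochord at both stages) were below both MPdiff and NMPdiff for 109 of the higher genes, against 11.8% of all genes compared. They were above both for 46 of the lower genes, against 8.45%. None of the not-shared lower genes and 7 of the not-shared higher genes were in these counts. This split follows largely from the definitions, because the mark and these counts both use MPdiff and MP at E9.5.

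**Figure D1:**
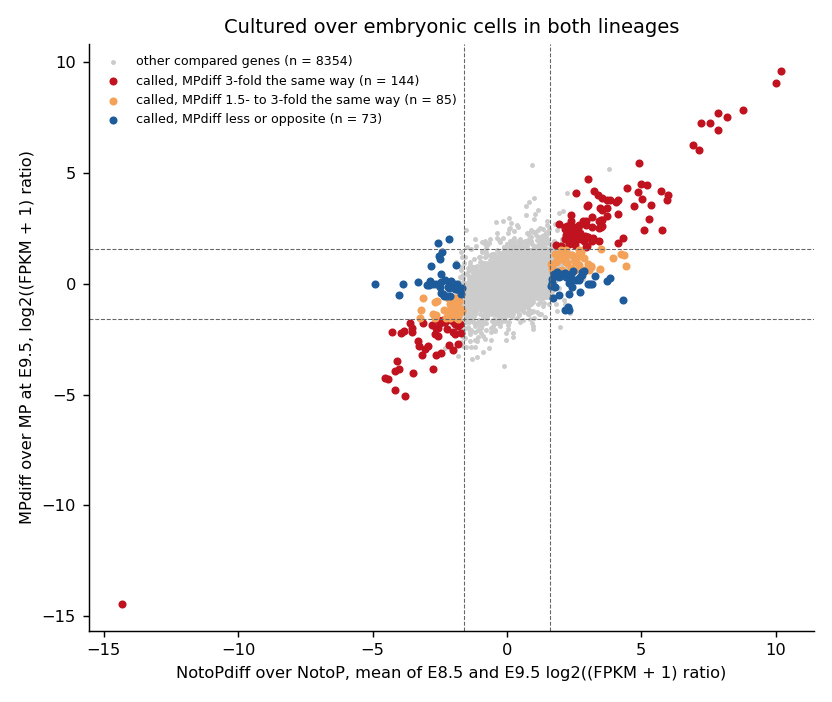
Each point is 1 of 8656 genes, with the mean of the 2 NotoPdiff over NotoP log2 ratios on the horizontal axis and the MPdiff over MP (E9.5) log2 ratio on the vertical axis, both on the log2((FPKM + 1) ratio) scale. Colours mark the 302 called genes by what the mesoderm pair showed, dashed lines mark 3-fold, and the isolated point at the lower left is Rn45s.

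None of the notochord genes was called higher in culture. Of 23 notochord markers compared, 5 were lower (*Noto*, *Shh*, *Lmx1a*, *Samd3* and *Col2a1*), against 1.41% of all genes compared. The median log2 ratio over the 23 was -0.89 against E8.5 and -0.42 against E9.5. *Noto*, the homeobox gene that defines the progenitor pool, had 152 FPKM in NotoP at E8.5, 164 at E9.5 and 22.5 in NotoPdiff, log2 ratios of -2.70 and -2.81. *Shh* had 161, 178 and 30.2 FPKM, while trunk notochord had 468 at E8.5 and 607 at E9.5. NotoPdiff was thus below all 4 embryonic notochord libraries for *Shh*, and for *Noto* it lay between the trunk notochord values of 27.5 and 20.8 FPKM and below NotoP. *Lmx1a*, a LIM homeobox gene, had 45.2, 42.8 and 9.31 FPKM, and *Samd3* had 112, 133 and 22.1. Both were at or near 0 in MP at E9.5 and at most 1.72 FPKM in MPdiff. *Noto*, *Shh*, *Lmx1a* and *Samd3* were not shared by the mesoderm pair, which had little of them in either library.

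The other 18 markers did not reach 3-fold against both stages. *T* had 909 and 744 FPKM in NotoP and 375 in NotoPdiff, log2 ratios of -1.28 and -0.99, and in the mesoderm pair it was 160.0 in MP and 25.8 in MPdiff. *Foxa2*, which the culture expresses from a transgene as well as from its own locus, had 57.0 and 45.6 FPKM in NotoP and 95.5 in NotoPdiff, and these values do not separate the 2 sources. *Foxa1*, a related forkhead gene, had 41.7 and 44.3 FPKM against 19.2. The BMP antagonist genes *Chrd* and *Nog* gave log2 ratios of -0.37 and -0.89 against E8.5 and of 1.34 and 0.11 against E9.5, so their sign depended on the stage. *Sox9*, *Krt8*, *Krt18* and *Bicc1* likewise lay between the 2 NotoP libraries. *Nodal*, the ligand of left-right patterning, had 8.56 FPKM at E8.5, 1.54 at E9.5 and 24.5 in NotoPdiff, and *Dand5*, its antagonist, 9.53, 5.29 and 19.3. Both were highest in NotoPdiff, although neither reached 3-fold against E8.5.

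**Figure D2:**
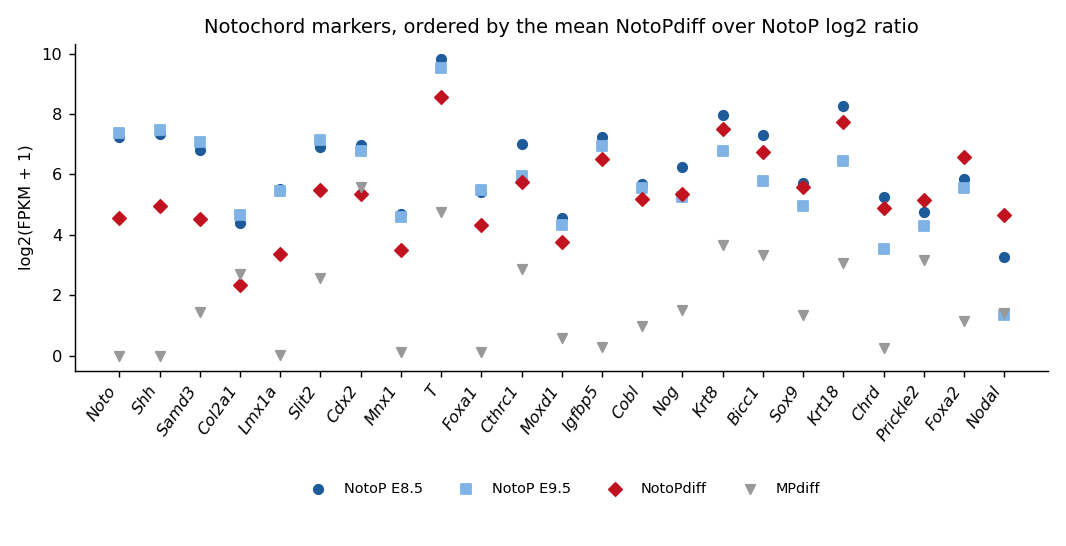
Levels of 23 notochord markers as log2(FPKM + 1) on the vertical axis, 1 point per library for NotoP at E8.5 (circles), NotoP at E9.5 (squares), NotoPdiff (diamonds) and MPdiff (triangles), with genes ordered from the lowest to the highest mean culture ratio. The 5 genes called lower are the 5 at the left, and NotoPdiff lies above MPdiff for all of them except *Col2a1*.

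T and Foxa2 binding was measured by ChIP-seq in cultures enriched for NotoPdiff cells, with 1 library per factor, 6875 T peaks and 22684 Foxa2 peaks. Both factors had peaks near 4 of the 5 lower notochord genes. A peak of T or of Foxa2 lay within 50 kb of an annotated start site for 21 of the 23 markers and, among genes that could be placed, for 6489 of 8589 genes compared (75.6%). T peaks lay near 20 of the 23 markers (87.0%), against 37.4% of genes compared. *Noto* has 3 T and 2 Foxa2 peaks in this distance, *Samd3* 1 and 2, and *Shh* and *Lmx1a* 1 of each, while *Col2a1* has none. The 101 bases around the summit of the T peak with the largest fold enrichment are shown for these 4 genes, since these genes were lower in cells in which T was bound nearby. They are GRCm38 plus strand sequence, with capitals for a T site (TCACACCT or GGTGTGA) or a forkhead site (TGTTTAC or TGTTTGC) on either strand. The fold enrichments at these summits were 16.1 for *Noto*, 4.35 for *Shh*, 10.3 for *Lmx1a* and 20.2 for *Samd3*. The *Noto* window is chr6:85415882-85415982, the *Shh* window chr5:28459323-28459423, the *Lmx1a* window chr1:167731587-167731687 and the *Samd3* window chr10:26228292-26228392.
Noto: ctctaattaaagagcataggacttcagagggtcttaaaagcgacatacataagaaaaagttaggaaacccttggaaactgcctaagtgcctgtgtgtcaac
Shh: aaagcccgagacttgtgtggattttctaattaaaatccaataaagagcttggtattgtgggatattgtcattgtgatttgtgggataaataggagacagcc
Lmx1a: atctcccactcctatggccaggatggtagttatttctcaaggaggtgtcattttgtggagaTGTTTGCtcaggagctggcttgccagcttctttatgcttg
Samd3: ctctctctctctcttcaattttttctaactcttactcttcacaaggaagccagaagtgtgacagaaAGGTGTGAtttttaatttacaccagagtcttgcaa
The *Samd3* window holds a T site, which both spellings match, the *Lmx1a* window holds a forkhead site, and the other 2 windows hold none of these letters. Among the 6593 T peaks searched, 8.71% of such windows hold a T site and 13.1% a forkhead site as written here. The *Noto* window lies before the gene (chromosome 6, 85423886 to 85428877, plus strand), its peak 7954 bp from the nearest start site, and the *Shh* window lies within the gene (chromosome 5, 28456815 to 28467256, minus strand), at 7883 bp.

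Among the lower calls were 10 Hox genes. Each of the 10 had under 5 FPKM in NotoPdiff, so it entered the comparison through NotoP alone and had to lie below NotoP. The Hox counts that follow depend in part on this filter. All 39 Hox genes were listed and 19 were compared, of which 18 were below NotoP at both stages, against 3009 of the 8656 genes compared, 10 were called lower, 9 were not called and 0 were higher, with median log2 ratios of -2.12 against E8.5 and -2.22 against E9.5. Hox genes encode the homeodomain factors that set position along the body axis, and their paralogue number follows their order in the cluster. *Hoxb1*, of the first paralogue group, had 47.2 and 44.3 FPKM in NotoP and 28.0 in NotoPdiff. *Hoxd1* of the same paralogue group was called lower, with 7.09, 11.1 and 1.44 FPKM. In paralogue groups 1 to 4, 2 of 9 genes compared were lower, with medians of -1.44 and -1.81. In groups 5 to 9, 8 of 10 were lower, with medians of -2.55 and -3.33, and the difference between these counts was not tested. With a pseudocount of 5 FPKM, *Hoxa7*, *Hoxa9*, *Hoxb5*, *Hoxd1* and *Hoxd4* were no longer called.

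*Hoxd9* (chromosome 2, 74697727 to 74700208) had 24.2 and 32.8 FPKM in NotoP and 0.811 in NotoPdiff, but 21.1 in MP and 14.8 in MPdiff, so it was not shared. *Hoxb5* was likewise kept in MPdiff, with 7.96, 5.43 and 0.488 FPKM in the NotoP comparison against 10.1 and 6.53 in the MP comparison. Other genes were lower in both lineages. *Hoxa9* had 6.72, 47.5 and 0.0637 FPKM, with 29.3 in MP and 0.0942 in MPdiff, and *Hoxc8* had 12.7, 21.7 and 0.103, with 18.0 and 0.330. In all, 7 of the 10 lower Hox genes were shared (*Hoxa5*, *Hoxa7*, *Hoxa9*, *Hoxb9*, *Hoxc8*, *Hoxd4* and *Hoxd8*). No gene of groups 10 to 13 was compared, because they were near 0 in NotoP at E8.5, where the 12 genes summed to 1.68 FPKM. Their sum was 200.3 FPKM in NotoP at E9.5, 446.8 in MP at E9.5 and 0.665 in NotoPdiff, so NotoPdiff was at the low end, where NotoP at E8.5 also lay. *Hoxa5*, *Hoxd4*, *Hoxa9* and *Hoxc8* overlap other annotated genes on the same strand, which can share reads with them.

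**Figure D3:**
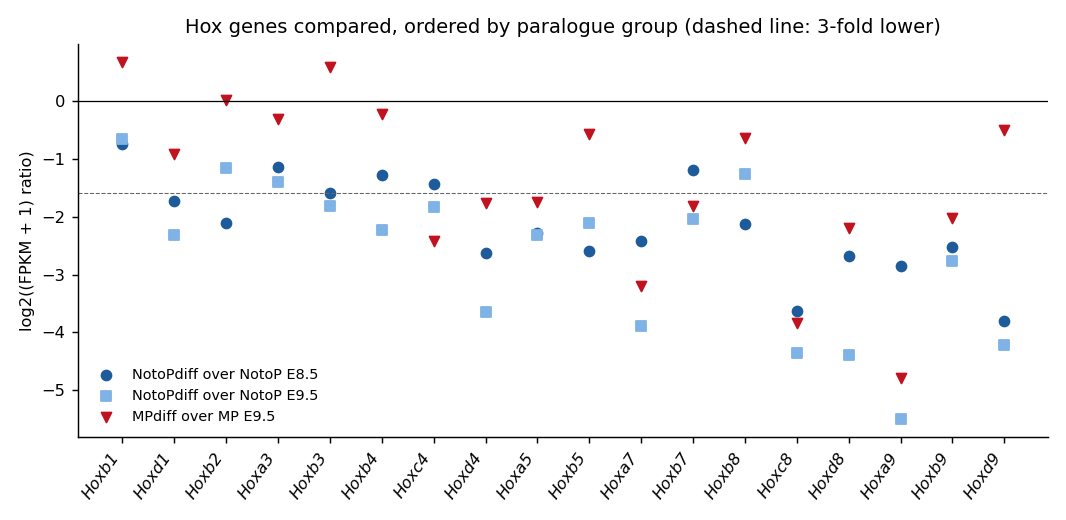
Log2((FPKM + 1) ratio) on the vertical axis for 18 Hox genes compared, ordered by paralogue group, for NotoPdiff over NotoP at E8.5 (circles) and E9.5 (squares) and for MPdiff over MP at E9.5 (triangles). For 8 of the 10 genes of groups 5 to 9 both NotoP ratios lie below the lower 3-fold line, and for *Hoxb1* none of the 3 ratios does.

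*Cdx4*, a caudal-type homeobox gene upstream of the posterior Hox genes, was lower as well, with 26.0 and 32.7 FPKM in NotoP, 1.16 in NotoPdiff, 107 in MP and 2.26 in MPdiff. *Cdx2* had 126, 107 and 39.9 FPKM, and its log2 ratio against E9.5 was -1.41, short of the threshold. *Cdx1* had 17.8 FPKM at E8.5, 1.47 at E9.5 and 27.8 in NotoPdiff. *Cdx4* was the only one of the 3 Cdx genes called. Among 19 targets of Wnt signalling compared, *Cdx4* and the growth factor gene *Fgf17* were lower and none was higher, against 1.41% and 2.08% of all genes compared. *Fgf17* had 6.15 and 15.7 FPKM in NotoP against 0.750 in NotoPdiff. It was shared, with 16.0 in MP at E9.5 and 0.825 in MPdiff. *Axin2*, the common readout of the pathway, had 24.4, 24.8 and 40.3 FPKM. The list's medians were -0.25 and 0.12. *Hoxaas3*, a long noncoding RNA of the Hoxa cluster, was among the 5 lower shared genes with the largest differences, at 87.0 and 98.0 FPKM in NotoP, 4.26 in NotoPdiff, 139 in MP and 8.12 in MPdiff.

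Genes of glycolysis and of the response to low oxygen lay on the lower side in culture in both lineages. Of 26 compared, 9 were lower (*Slc2a3*, *Pfkp*, *Pfkl*, *Pgk1*, *Ldha*, *Pdk1*, *Bnip3*, *P4ha1* and *Slc16a3*) and 0 higher, and 23 were below NotoP at both stages, against 3009 of the 8656 genes compared. The median log2 ratio was -1.42 against E8.5, -1.21 against E9.5 and -0.95 in the mesoderm pair, where 23 of the 26 were also below the embryonic level, against 4208 of all genes compared. These genes encode glucose uptake and glycolytic enzymes, lactate export (*Slc16a3*), the kinase that shuts pyruvate out of the mitochondrion (*Pdk1*), mitophagy (*Bnip3*) and collagen prolyl hydroxylation (*P4ha1*), and many are targets of the hypoxia-inducible factors. *Bnip3* (chromosome 7, 138890836 to 138909519) differed most, with 358 and 156 FPKM in NotoP and 19.3 in NotoPdiff. *Ldha*, lactate dehydrogenase, had 1822, 1389 and 423 FPKM, and *Pgk1* 871, 786 and 213. The corresponding MP and MPdiff levels were 59.9 and 14.1 FPKM for *Bnip3*, 1699 and 681 for *Ldha* and 664 and 205 for *Pgk1*.

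Of the 9 genes, 5 passed 3-fold in the mesoderm pair (*Slc2a3*, *Pgk1*, *Pdk1*, *Bnip3* and *P4ha1*), 3 lay between 1.5- and 3-fold (*Pfkl*, *Ldha* and *Slc16a3*), and *Pfkp* was not shared, with 5.33 FPKM in MP and 4.72 in MPdiff. Trunk notochord lay between NotoP and NotoPdiff at both stages for *Pgk1* (607 and 349 FPKM) and *Ldha* (839 and 541). Other targets of the same response were also called lower and are named after their values were seen, among them *Egln1*, *Kdm3a*, *Ero1l*, *Ak4*, *Pfkfb3*, *Fam162a* and *Plod2*. *Pfkfb3*, which makes an activator of phosphofructokinase, had 77.2 and 35.9 FPKM in NotoP and 5.08 in NotoPdiff. *Egln1*, the oxygen-sensing prolyl hydroxylase, had 36.7, 46.1 and 8.91, and was shared. Other members of the list were not called: *Mxi1* had 14.6, 15.0 and 17.2 FPKM, *Vegfa* 36.6, 44.3 and 21.5, and *Ddit4* 109.7, 52.4 and 60.9. The oxygen level of either source is not given in the sources used here. The 75 nuclear genes of oxidative phosphorylation compared, picked by a symbol pattern, had medians of -0.31 and -0.27. Of these, *Ndufs5* and *Cox6b2* were higher and 0 lower, against 2.08% and 1.41% of all genes compared. The pattern left out *Cox4i2*, another nuclear gene of this system, which was called lower and was shared. It had 16.9 and 16.8 FPKM in NotoP, 0.469 in NotoPdiff, 10.1 in MP at E9.5 and 2.27 in MPdiff.

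**Figure D4:**
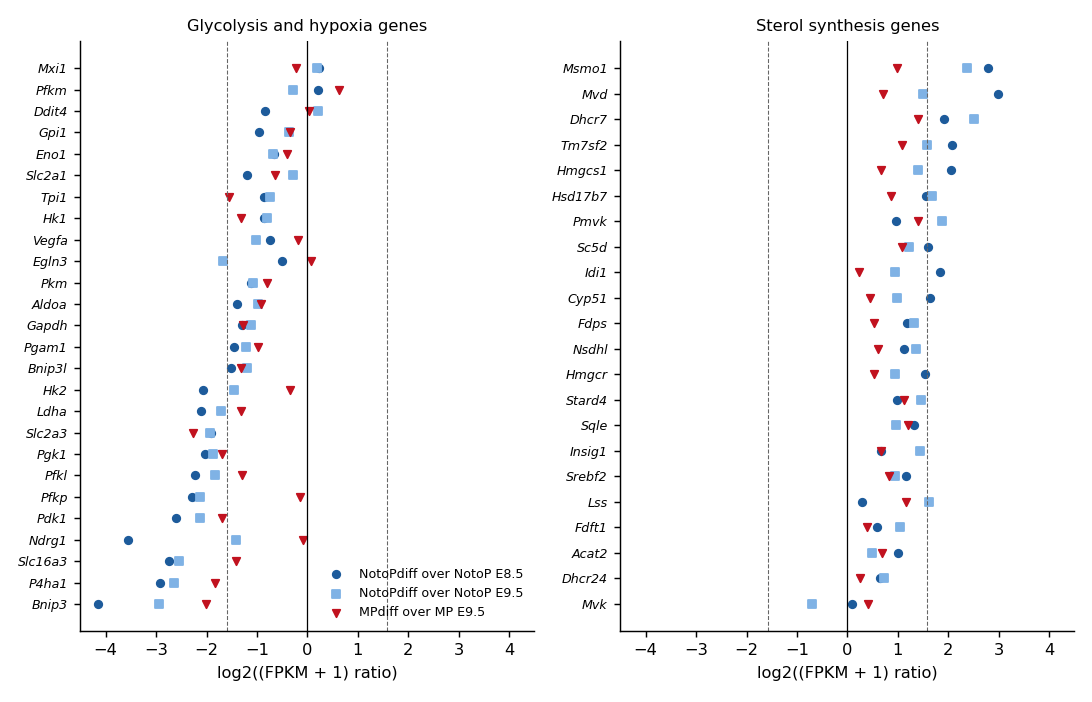
Log2((FPKM + 1) ratio) on the horizontal axis for 26 genes of glycolysis and hypoxia (left) and 22 genes of sterol synthesis (right), for NotoPdiff over NotoP at E8.5 (circles) and E9.5 (squares) and MPdiff over MP at E9.5 (triangles), with dashed lines at 3-fold. Of the 26 genes of glycolysis and hypoxia, 23 have both NotoP ratios below 0, and of the 22 sterol genes drawn 21 have both higher than 0.

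The promoter windows of *Bnip3*, *Ldha* and *Pdk1* are shown because these genes were lower together. They run from 250 bases before to 50 bases after a RefSeq start site on the strand of the gene (GRCm38.p6), at chr7:138909457-138909756 on the minus strand for *Bnip3*, chr7:46845554-46845853 on the plus strand for *Ldha* and chr2:71872974-71873273 on the plus strand for *Pdk1*. Capitals mark the core of the hypoxia response element, ACGTG or GCGTG, on either strand.
Bnip3: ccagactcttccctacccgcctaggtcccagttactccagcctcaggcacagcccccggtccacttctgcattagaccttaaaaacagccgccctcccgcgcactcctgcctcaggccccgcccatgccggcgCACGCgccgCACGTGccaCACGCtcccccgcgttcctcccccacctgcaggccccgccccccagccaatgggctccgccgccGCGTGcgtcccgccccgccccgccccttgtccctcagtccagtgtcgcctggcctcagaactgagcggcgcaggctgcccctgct
Ldha: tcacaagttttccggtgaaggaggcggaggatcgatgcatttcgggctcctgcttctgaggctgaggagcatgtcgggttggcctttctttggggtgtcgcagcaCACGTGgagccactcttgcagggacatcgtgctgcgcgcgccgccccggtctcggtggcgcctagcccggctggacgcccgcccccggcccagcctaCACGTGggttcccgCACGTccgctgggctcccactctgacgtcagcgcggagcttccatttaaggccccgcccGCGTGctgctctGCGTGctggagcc
Pdk1: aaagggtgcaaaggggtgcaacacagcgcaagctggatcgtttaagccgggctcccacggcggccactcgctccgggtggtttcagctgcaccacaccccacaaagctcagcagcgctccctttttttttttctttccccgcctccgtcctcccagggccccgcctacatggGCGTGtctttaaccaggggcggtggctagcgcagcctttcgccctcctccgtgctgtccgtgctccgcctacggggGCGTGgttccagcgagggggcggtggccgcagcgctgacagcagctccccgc
These windows hold 5, 7 and 2 matches, overlapping ones included. At least 1 window with the core was found for 8 of the 8 called list members matched to a promoter and for 21 of 23 list members matched, but also for 4671 of 6556 genes compared that were matched (71.2%), so a match says little about a single gene.

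Genes of sterol synthesis lay on the higher side. Of 23 compared, 22 were above NotoP at both stages, against 3041 of the 8656 genes compared, and all 23 were above MP in MPdiff, against 4440, with median log2 ratios of 1.32, 1.37 and 0.71, but only 3 passed 3-fold at both stages, *Dhcr7* and *Msmo1* among them, and 0 were lower. *Msmo1*, a sterol demethylation enzyme, had 9.31 and 12.7 FPKM in NotoP and 70.1 in NotoPdiff, and *Dhcr7*, the last enzyme of cholesterol synthesis, 6.03, 3.66 and 25.3. Both were also higher in MPdiff than in MP at E9.5, though less than 3-fold. *Hmgcs1*, at the entry of the pathway, had 30.3, 48.5 and 129.5 FPKM, past 3-fold against E8.5 only. *Mvk* was the one member not above NotoP at both stages, with 8.53, 15.5 and 9.13. *Scd1*, which desaturates fatty acids and was among the 5 higher shared genes with the largest differences, had 2.34 and 2.53 FPKM in NotoP, 59.3 in NotoPdiff, 23.4 in MP and 87.0 in MPdiff. *Elovl6*, which elongates fatty acids, and *Lrp8*, a lipoprotein receptor, were also higher and are named after their values were seen, with 28.8 and 26.4 FPKM in NotoPdiff against 7.77 and 7.85 in NotoP at E8.5 and 8.23 and 5.83 at E9.5.

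Matrix genes of the notochord sheath called lower included the collagen genes *Col2a1* and *Col9a1*, while no laminin gene was called. Of 17 genes compared, *Col2a1*, *Col9a1* and *Fbn2* were lower and 0 were higher, against 1.41% and 2.08% of all genes compared. The medians were -0.71 and -0.50. In the mesoderm pair these 3 genes lay 1.5- to 3-fold the same way, with log2 ratios of -0.62, -1.06 and -1.19. *Col2a1*, the main fibrillar collagen of the sheath, had 20.0 and 24.2 FPKM in NotoP, 4.05 in NotoPdiff, and 188 and 308 in trunk notochord. *Col9a1* had 5.48 and 6.03 FPKM in NotoP and 0.597 in NotoPdiff. Both collagen genes had under 5 FPKM in NotoPdiff, so they entered through NotoP alone and had to lie below NotoP. With a pseudocount of 5 FPKM neither was called, and with a minimum of 10 FPKM *Col9a1* was not. *Fbn2*, a fibrillin, had 33.7, 43.3 and 6.71 FPKM. The laminin gene *Lamb1* had 150.3, 90.4 and 101, and the basement membrane collagen *Col4a1* 27.1, 21.8 and 25.7. *Mfap2*, which encodes a microfibril protein that binds fibrillin, was among the 5 lower shared genes with the largest differences, with 34.1 and 25.6 FPKM in NotoP, 0.415 in NotoPdiff, 29.2 in MP and 0.536 in MPdiff. *Loxl2*, a collagen cross-linking enzyme named after its values were seen, showed the same, with 36.8, 46.7, 1.47, 27.4 and 1.52 FPKM in that order.

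*Pou5f1*, the pluripotency factor Oct4, was the only one called of 9 pluripotency and epiblast genes compared. It was listed at 0 in both NotoP libraries, had 10.7 FPKM in NotoPdiff, 13.1 in MPdiff and 0.923 in MP, and reached 269 in NMPdiff. The median log2 ratio of the 9 was 0.35 against E8.5 and 1.16 against E9.5, and *Dnmt3b*, *Lin28a* and *Trim71* were below 3-fold at both stages. *Fst*, encoding the activin and BMP antagonist follistatin, had 6.00 and 6.04 FPKM in NotoP, 43.0 in NotoPdiff and 295 in NMPdiff. It was shared, with 4.05 in MP at E9.5 and 27.5 in MPdiff. *Nkx1-2*, a homeobox gene of neuromesodermal progenitors (chromosome 7, 132594878 to 132599637, overlapping an annotated *Fgfr2* transcript), had 0.496 and 0.338 FPKM in NotoP, 19.2 in NotoPdiff and 41.5 in NMPdiff. In the mesoderm pair it was 5.77 in MP and 7.13 in MPdiff, so it was not shared. *Zic2*, a zinc finger gene of the neural plate, had 0.954 and 0.868 FPKM in NotoP, 13.5 in NotoPdiff and 54.6 in NMPdiff. Its level at E8.5 was 11.1 FPKM in trunk notochord and 15.7 in MP. These 4 genes come from different lists and were set together after their values were seen. In each, NMPdiff was higher than NotoPdiff, which was higher than both NotoP libraries. *Foxh1*, the Nodal pathway cofactor, was listed at 0 in both NotoP libraries and had 7.09 FPKM in NotoPdiff, 25.7 in MPdiff and 27.4 in NMPdiff. It was shared, with MP at E9.5 listed at 0.

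Single genes of other fates stood on both sides. *Trh*, the thyrotropin-releasing hormone gene of the endoderm list, had 4.09 and 0.465 FPKM in NotoP and 71.8 in NotoPdiff, while *Krt19*, a keratin of epithelia, had 96.1, 160.3 and 30.7. *Irx3*, a homeobox gene, had 18.5, 19.2 and 2.34 FPKM and in MP it had 6.63 at E8.5 and was listed at 0 at E9.5, with 2.52 in MPdiff. *Id2*, an inhibitor of basic helix-loop-helix factors and a target of BMP signalling, had 17.8 and 9.62 FPKM in NotoP and 2.14 in NotoPdiff, but 46.9 in MP at E8.5, 15.1 at E9.5 and 64.6 in MPdiff. Against MP at E9.5 these 2 were the only lower genes that MPdiff showed at least 3-fold the opposite way, and no higher gene was, but against MP at E8.5 MPdiff was lower for *Irx3* and less than 3-fold higher for *Id2*. *Id1*, from the same family, had 42.4, 60.7 and 15.7 FPKM, and *Id3* 41.6, 58.8 and 31.0, neither past 3-fold against both stages. *Gdf1*, the Nodal co-ligand, had 21.8, 14.9 and 1.54 FPKM, and it lies within *Cers1* on the same strand, so its reads cannot be assigned with certainty. Of 11 presomitic mesoderm genes, 10 hedgehog pathway genes and 30 cell cycle genes compared, *Shh* was the only one called. Of 14 genes of amino acid stress and synthesis, 9 retinoic acid genes and 5 motile cilium genes compared, 0 were called. *Ptch1*, the receptor and target of Shh, had 150.5 and 86.0 FPKM in NotoP and 112 in NotoPdiff, and *Gli1* 23.2, 16.9 and 12.4. Single calls came from other lists. *Rhox5*, a homeobox gene of the germline, was listed at 0 in both NotoP libraries and had 8.15 FPKM in NotoPdiff. It had 16.2 FPKM in embryonic MP at E8.5, 2.86 in MP at E9.5 and 14.9 in MPdiff, and was shared. *Emp2*, of the vacuole and caveola list, had 2.74, 0.187 and 11.1, and the imprinted growth factor gene *Igf2* had 307, 345 and 95.8. *Igf2* was shared, with 636 FPKM in MP at E9.5 and 181 in MPdiff.

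Of 16 targets of p53 compared, *Cdkn1a* and *Pmaip1* were higher and 0 lower, against 2.08% and 1.41% of all genes compared. Of the 16, 13 were above NotoP at both stages, against 3041 of the 8656 genes compared. The list's medians were 1.70 against E8.5, 0.97 against E9.5 and 0.62 in the mesoderm pair. In that pair 14 of the 16 were above MP at E9.5, against 4440 of all genes compared. There, 7 of the 16 were at least 3-fold higher, against 2.83%. *Cdkn1a*, the cell cycle inhibitor p21, had 7.41 and 8.43 FPKM in NotoP, 43.0 in NotoPdiff, 1.92 in MP and 15.3 in MPdiff, and was shared. *Pmaip1*, the proapoptotic gene Noxa, had 0.711, 3.88, 20.2, 6.72 and 10.3, and was not shared. *Ccng1* had 22.4, 45.4 and 135 FPKM, a log2 ratio of 1.55 against E9.5. *Cdkn2a*, a tumour suppressor locus that often comes on in culture, is named after its values were seen and was listed at 0 in all 6 embryonic libraries, with 9.87 FPKM in NotoPdiff, 4.68 in MPdiff and 4.84 in NMPdiff. Of 11 immediate early and heat shock genes compared, *Egr1* and *Cyr61* were higher, against 2.08% of all genes compared. *Egr1*, a zinc finger gene of the growth factor response, had 0.614 and 0.419 FPKM in NotoP, 44.6 in NotoPdiff, 0.744 in MP and 74.7 in MPdiff. *Cyr61*, a target of YAP, had 20.5, 24.5 and 79.4 in the NotoP comparison and 17.8 and 16.2 in the mesoderm pair, and was not shared. The heat shock gene *Hspa8* had 902, 1026 and 1215 FPKM. *Txnip* and *Arrdc4*, 2 related arrestin genes that respond to glucose, were both higher and are named after their values were seen. *Txnip* had 7.07 and 10.8 FPKM in NotoP and 49.2 in NotoPdiff, and *Arrdc4* 0.979, 1.32 and 17.5. In the mesoderm pair *Txnip* was shared, with 3.76 in MP and 27.6 in MPdiff. *Arrdc4* differed there 1.5- to 3-fold the same way, with 11.1 and 19.8.

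The 8 not-shared genes with the largest differences in each direction were dominated by genes with low or absent levels on one side. Among the higher genes, *Dcpp3*, *Dcpp1*, *Chrna9* and *Gpx2* were listed at 0 in both NotoP libraries and had 12.2, 7.97, 7.12 and 5.66 FPKM in NotoPdiff. *Dcpp1* and *Dcpp3* are near-identical neighbours on chromosome 17, and reads can be split between them. *Chrna9*, a subunit of the acetylcholine receptor, had 1.72 FPKM in NMPdiff and 0 in MPdiff. *Gas6*, a ligand of TAM receptors, had 0.727, 0 and 11.6 FPKM, and *Fam19a5* 0.405, 0.276 and 8.34. *Ndufs5*, a subunit of complex I, had 19.2 FPKM in NotoPdiff and near 0 in NotoP, but 47.5 in trunk notochord at E8.5 and 42.2 in MP at E9.5, so its value varied among embryonic libraries too and is uncertain.

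Among the lower not-shared genes, *Plet1* had 9.20 and 9.42 FPKM in NotoP and 0.0264 in NotoPdiff, with 17.9 and 14.2 in trunk notochord. *Ly6h*, a member of the Ly6 family, had 45.1, 18.0 and 1.05 FPKM and was listed at 0 in the other cultured libraries. *Klhl6* had 10.6, 16.6 and 0.992. *Pcp4*, a calmodulin regulator that overlaps *Igsf5*, had 8.83 and 91.4 FPKM in NotoP and was listed at 0 in NotoPdiff, so the 2 NotoP libraries differed from each other by more than 3-fold as well. *Ceacam20*, shared by the mesoderm pair, had 16.6 and 20.0 FPKM in NotoP and 3.47 in MP, and was listed at 0 in all 3 cultured libraries. With a pseudocount of 5 FPKM, *Dcpp1*, *Chrna9*, *Gas6*, *Gpx2*, *Fam19a5*, *Plet1*, *Pcp4* and *Klhl6* were no longer called. OTTMUSG00000016609 resembled *Ceacam20*, with 21.2, 23.7 and 18.2 FPKM.

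Small nucleolar RNAs were the largest group among the higher genes. They guide chemical modification of ribosomal RNA, lie mostly in introns of host genes, and have no poly(A) tail. Of 1211 symbols of small nucleolar RNAs and microRNAs listed, 51 were compared and 44 were higher, 40 of them shared by the mesoderm pair, and 0 were lower. The counts of higher and lower symbols depend in part on the FPKM minimum. A symbol listed at 0 in both NotoP libraries could enter only through NotoPdiff and had to lie above NotoP. Only a symbol above 0 in both NotoP libraries could be called lower, and 21 were above 0 in NotoP at E8.5 and 25 at E9.5. Snord100, Snord34 and Snord87 had the most among those listed at 0 in all 6 embryonic libraries, with 1186, 1033 and 434 FPKM in NotoPdiff and 779, 537 and 229 in MPdiff. These 3 are shown as examples of the class, written as DNA from the GENCODE transcripts of GRCm38, at chr10:23785750-23785823, chr7:45126601-45126670 and chr1:9942463-9942549, all on the minus strand. Capitals mark the C box TGATGA, where the sequence holds exactly these letters, and the last CTGA, the D box.
Snord100: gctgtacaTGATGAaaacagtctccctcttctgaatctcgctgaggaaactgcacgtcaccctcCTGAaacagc
Snord34: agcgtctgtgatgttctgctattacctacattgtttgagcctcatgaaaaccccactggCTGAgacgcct
Snord87: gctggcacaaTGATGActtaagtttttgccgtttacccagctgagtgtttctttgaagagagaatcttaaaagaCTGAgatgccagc
They are 74, 70 and 87 bases long.

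Of the higher small RNAs, 34 lie within a listed host gene on the same strand, in 28 distinct hosts. The median log2 ratio of the 28 hosts was -0.06 against E8.5 and -0.07 against E9.5, and 1 host was called higher. Snord100 lies in *Rps12*, which had 1742 and 1067 FPKM in NotoP and 1349 in NotoPdiff. Snord34 lies in *Rpl13a*, with 807, 753 and 689.5. The host called higher was *Gas5* (chromosome 1, 161034422 to 161038539), a noncoding snoRNA host whose spliced transcript is sensitive to translation-coupled decay, with 39.1 and 52.2 FPKM in NotoP, 415 in NotoPdiff, 52.5 in MP and 318 in MPdiff. Other short structured RNAs outside the symbol pattern were higher too. Rnu73b, annotated as a small nucleolar RNA within *Rps3a1*, was listed at 0 in all 6 embryonic libraries and had 287 FPKM in NotoPdiff and 181 in MPdiff. Rprl3, a ribonuclease P RNA-like gene, had 0 and 8.15 FPKM in NotoP and 422 in NotoPdiff, and Rmrp, the RNA of ribonuclease MRP, had 1739, 2035 and 7516. FPKM divides by transcript length, so few fragments on an RNA of this size give a large value.

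**Figure D5:**
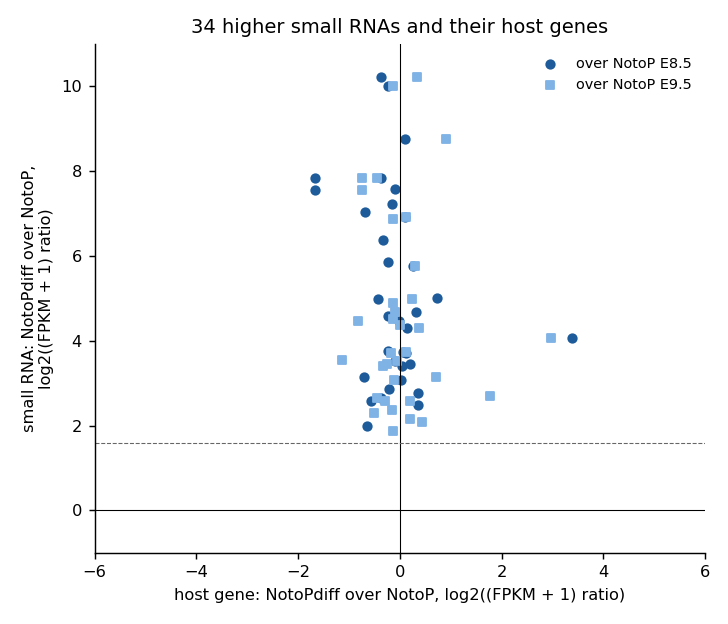
Each of 34 higher small RNAs is drawn at the log2((FPKM + 1) ratio) of its host gene on the horizontal axis and its own ratio on the vertical axis, for NotoPdiff over NotoP at E8.5 (circles) and E9.5 (squares), with the dashed line at 3-fold. The small RNAs lie above the 3-fold line, while the host ratios lie between -1.68 and 1.77 apart from *Gas5*, at 3.37 and 2.97.

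Length set these genes apart, and base composition less so. The median length of the longest annotated transcript was 1733 bases for the 173 of 180 higher genes that could be placed, 2521 for 116 of the 122 lower genes and 3470 for 8589 of the 8656 genes compared. Transcripts under 300 bases were 45 of the 173 higher, 1 of the 116 lower and 59 of all 8589 placed genes. Without small RNA symbols the higher genes had a median of 2734 bases. The median GC content was 50.3% for higher and 50.3% for lower genes, against 48.9% for all. Whether length has a part in the other calls was not tested. Other noncoding or repeated sequences were called on both sides. Among 61 symbols of replication-dependent histone genes compared, 7 were lower and 2 higher, against 1.41% and 2.08% of all genes compared. The higher ones were *Hist1h2ap* and Hist3h2bb-ps, the latter annotated as a processed pseudogene. *Hist1h2bk* had 198 and 121 FPKM in NotoP and 34.8 in NotoPdiff, whereas *Hist1h2ap* was near 0 in NotoP and had 33.0 in NotoPdiff. Histone genes are near-identical copies whose reads can be split between them. Among 81 ribosomal protein genes compared, *Rpl26* alone was called, lower, with 1751 and 1336 FPKM in NotoP, 156 in NotoPdiff, 1184 in MP and 167 in MPdiff, and the list's medians were -0.06 and 0.00.

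T and Foxa2 peaks were found near called genes about as often as near all genes, with 1 difference in counts. Within 50 kb of a start site, 138 of 173 higher (79.8%) and 91 of 116 lower genes (78.4%) had a peak of either factor, against 75.6% of the genes compared. For T alone the values were 63 higher (36.4%) and 62 lower genes (53.4%), against 37.4%. For Foxa2 they were 118 (68.2%) and 76 (65.5%), against 65.7%. T peaks within 10 kb lay at 33 of the lower (28.4%) and 23 of the higher genes (13.3%), against 15.6% of all. The lower genes shared by the mesoderm pair and those not shared were alike in this, with a T peak within 50 kb at 23 of 45 and 20 of 35 placed genes. Of the 19 Hox genes compared, 15 had a T peak in this distance, and several share peaks because they lie in the same cluster. The ChIP-seq was made in cultured cells only, with 1 library per factor, so no embryonic binding was compared.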

How the data were processed

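RNA-seq was performed on 9 sorted populations with 1 library each, prepared with unique molecular identifiers. Per the methods of the study, reads were trimmed, aligned with TopHat2 2.1.1 and Bowtie 1.2.2 to mm10, keeping strand, and then deduplicated. The authors deposited FPKM values from Cufflinks 2.2.1 in 1 table. The cultured libraries were sequenced on a NextSeq and the embryonic ones on a HiSeq instrument. The table holds no counts, so neither intervals nor count tests were made, and the mapped-read totals that the study lists for the embryonic libraries were not used here. For T and Foxa2 ChIP-seq (1 library each, Bowtie 1.3.1, MACS3 3.0.0b1), the deposited peak lists give the fold enrichment and the −log10 q-value of each peak.

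Ratios were computed as log2((FPKM + 1)/(FPKM + 1)) with Python 3.11.15, numpy 2.4.6, pandas 2.3.3 and scipy 1.17.1, and plotted with matplotlib 3.10.9. The step was tested on simulated data. No p-value was computed. Gene positions, lengths and small RNA sequences came from the GENCODE annotation of GRCm38, and promoter windows from RefSeq (GRCm38.p6). Genes named as the largest were the 8 higher and 8 lower not-shared calls and the 5 higher and 5 lower shared calls with the largest smaller ratio, leaving out symbols that start with Mir, Snor, or Gm and a digit, or that end in Rik, beside called and defining members of 30 gene lists. The members, the lists and the comparisons were chosen with earlier results of these data known. In all, 81 alternatives were planned and 4 were added after seeing the data. The other samples of the series were not used here. Values of 2 list members are not reported here and are left out of the plots, though they remain in the counts and medians.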

Additional observations from a re-analysis of the deposited data

Results flagged for a closer look

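In 2 lower genes MPdiff was at least 3-fold higher than MP at E9.5, opposite to NotoPdiff against NotoP at both stages. *Id2* had a log2 ratio of MPdiff over MP at E9.5 of 2.03, from 15.1 to 64.6 FPKM, while NotoPdiff was at 2.14 FPKM against 17.8 and 9.62 in NotoP. MP at E8.5 had 46.9 FPKM of *Id2*, so against that stage the opposite difference was under 3-fold. *Irx3* had a log2 ratio of 1.81 in the mesoderm pair, where MP at E9.5 was listed at 0 and MPdiff had 2.52 FPKM, while NotoPdiff was at 2.34 FPKM against 18.5 and 19.2 in NotoP. MP at E8.5 had 6.63 FPKM of *Irx3*, so against that stage MPdiff was lower, the same way as NotoPdiff. The opposite direction thus depends on the MP stage for *Irx3*, and the difference between the lineages was not tested, since each group is 1 library.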

How the results depend on the processing

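No paired analysis was possible because each group has 1 library. The count of 180 higher genes became 77 with a pseudocount of 5 FPKM, 281 with a minimum of 1 FPKM or with none, 117 with a minimum of 10 FPKM, 382 at 2-fold, 95 at 5-fold, 400.0 against E8.5 alone and 337 against E9.5 alone. The count of 122 lower genes became 49 with a pseudocount of 5 FPKM, 347 at 2-fold, 43 at 5-fold, 241 against E8.5 alone and 202 against E9.5 alone. The 95 higher genes shared by the mesoderm pair became 50.0 with a pseudocount of 5 FPKM and 55 without small RNA symbols and Rn45s, an alternative chosen after seeing the data. The 49 lower shared genes became 16 with a pseudocount of 5 FPKM, 78 at 2-fold, 25 at 5-fold and 32 when both MP stages were required. Genes with a T or Foxa2 peak became 44 higher and 38 lower within 5 kb, and 62 higher and 52 lower within 10 kb. The 46 lower genes with no overlap became 70.0 with MP and trunk notochord at E9.5 alone. A looser or stricter threshold changes these counts by construction. Rescaling the libraries kept 298 of the 302 calls, and a pseudocount of 5 FPKM kept 126. Among 312 values of 78 named genes under alternatives, 0 reversed and 97 moved, 47 of them with a pseudocount of 5 FPKM. Of the 78 genes, 45 were no longer called under at least 1 alternative, 32 at 5-fold, 27 with a pseudocount of 5 FPKM and 15 with a minimum of 10 FPKM, and 0 under the others. Those lost with a pseudocount of 5 FPKM include *Col2a1*, *Col9a1*, *Pfkp*, *Dhcr7*, *Fgf17*, *Foxh1*, *Cyr61*, *Pmaip1*, *Id2*, *Krt19*, *Rhox5* and *Emp2*. The share of calls that the mesoderm pair showed ranged from 29.2% to 70.5% for higher and from 22.5% to 58.1% for lower genes. With 1 library per group, neither the spread between animals or cultures nor the counting error is known.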
